A study of Mus musculus with 6 samples.

Results

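Genes of mitosis, of the spindle and of the G2/M transition were followed in MC38 colon carcinoma cells after diphtheria toxin (DT), given to deplete myeloid cells. The set was fixed by name and holds 48 genes, 46 of them among the 19057 genes that the array's annotation names. All 95 of their probes, of 45281 on the array, were read. MC38, a mouse colon carcinoma line, had been injected into the spleen, which seeds metastases in the liver. The cells were sorted out of tumour-bearing livers on day 10. In the DT group, 3 samples, the mice had been injected with DT on days 7 and 9, and in the PBS group, also 3 samples, with PBS on the same days. All mice of both groups carried the CD11bDTR transgene, which lets DT kill cells that use the CD11b promoter, a promoter active in macrophages, monocytes, neutrophils and some other white blood cells. Illumina bead arrays, 1 for each sample, measured the RNA. Nothing in the labels tells whether each sample was 1 mouse or several, and the spread behind every p-value is that between the 3 samples of a group, which may be only technical.

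A dividing cell enters mitosis when cyclin B and the kinase CDK1 become active. The spindle, built by motor proteins of the kinesin family and by the Aurora and Polo-like kinases, then attaches to kinetochores, the protein plates on the centromeres. The spindle checkpoint holds the cell there until every chromosome is attached, after which the anaphase-promoting complex has securin and cyclin B destroyed, separase opens the cohesin rings, and the cell divides by cytokinesis. Most of these genes are transcribed late in the cell cycle under MuvB complexes, MYBL2 and FOXM1, and their transcripts are used as a gauge of how many cells of a population are in cycle.

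Of the 48 genes, 46 had a probe, and 39 had a probe that cleared background (detection p under 0.05) on 3 or more of the 6 arrays and were tested. Of these, 37 lay above background on all 6 arrays, the exceptions being Ect2, above it on 2 DT and 3 PBS arrays, and Pttg1, above it on 2 arrays of each group. The probes of Ccnb2, Bub1, Cenpe, Nuf2, Hmmr, Kif20a and Racgap1 were too dim to test, and no probe is named here for Ccnb1 and Mki67, so that cyclin B1 and Ki-67, the usual markers of mitotic and of cycling cells, were not measured. Levels are normalized log2 intensities, and differences are DT minus PBS on that scale.

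The arrays had median signals between 135 and 153.8, with between 36.7% and 40.6% of probes above background, and PBS replicate 2 had the lowest mean signal, 311.3 against 363.1 to 503.1 on the other arrays. The number of arrays limits the precision, and the smallest p that permuting 3 against 3 samples allows is 0.1. Of the 11 epithelial markers checked, Epcam, Krt18, Krt19, Krt20, Cdx2, Vil1 and Cldn3 were above background on no array, while Krt8, Cdh1 and Cldn7 could be tested, with summed linear intensities of 128.6 to 142.9 in DT and 120.1 to 153.4 in PBS. Most defining markers of colon epithelium were thus not detected. Of 19 macrophage and monocyte markers, 12 were tested, with summed linear intensities of 1808 to 2270 in DT and 2294 to 5312 in PBS, and Itgam, Ccr2 and Clec4f were above background on no array. Of 8 markers of dendritic cells and MHC class II, 5 were tested, with sums of 642.5 to 945.8 in DT and 1210 to 2785 in PBS, and Itgax, Flt3 and Xcr1 were above background on no array. Of 13 neutrophil markers, 8 were tested, with sums of 2597 to 3937 in DT and 1447 to 2185 in PBS, and Mmp8 was above background on no array. Of 12 T and NK cell markers, 3 were tested, with sums of 3101 to 4847 in DT and 6496 to 9400 in PBS, while Cd4, Cd8a, Gzmb, Klrb1c and Ncr1 were above background on no array. Of 12 stellate cell and fibroblast markers, 10 were tested, with sums of 35560 to 38117 in DT and 23140 to 33965 in PBS, and Lrat and Reln were above background on no array. The immune and stromal sums above did not overlap between the groups, but a sum is weighted towards its brightest genes. Among all single genes tested, 28.9% did not overlap either. Endothelial sums, over 2 tested markers, did not overlap, at 116.6 to 142.4 in DT and 164.4 to 174.7 in PBS. Hepatocyte sums (411.3 to 575.5 in DT, 535.5 to 908.2 in PBS) and erythroid sums (141.7 to 224.6 and 175 to 331) overlapped. Negative differences were found in 11 of 12 macrophage and monocyte markers, 4 of 5 of dendritic cells and MHC class II, and all 3 of T and NK cells. Neutrophil markers had 3 negative and 5 positive differences, and stellate cell and fibroblast markers 2 negative and 8 positive. The part of these cells in the values of the mitotic genes was not tested. In bulk samples, fewer cells of a type and less RNA per cell cannot be told apart.

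None of the 39 tested genes passed an adjusted p of 0.05 in limma between DT and PBS, where 1.09% of all 9483 genes tested did (103 genes). Of the 103, 31 (0.327% of all genes tested) were higher and 72 (0.759%) lower in DT. A separate fit with scaling to a common median called 27 genes, 20 higher and 7 lower. The mitotic genes had a median difference of −0.051, beside 0.011 over all genes. Their differences were positive in 12 and negative in 27, beside 4863 and 4620 of all 9483 genes. With scaling to a common median the median of the mitotic genes turned positive, to 0.12, and that over all genes was 0.165. An unadjusted p under 0.05 was reached by 7 of the 39, or 17.9%, where 23.9% of all genes reached it (11.9% lower and 12% higher). Of the 7, Espl1, Top2a, Kif22, Ttk and Plk1 had negative and Bub3 and Kif11 positive differences. The 3 DT values lay on 1 side of the 3 PBS values for 5 of the 39, or 12.8%, beside 28.9% of all genes; Espl1, Top2a and Kif22 lay below (14% of all genes) and Bub3 and Kif11 above (15%). At an adjusted p of 0.1, 3 of the 39 passed, a share close to the 7.96% of all genes.

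The precision allowed a bound on most of these differences. With each gene read from its brightest probe, the 95% interval lay inside a 2-fold change in either direction for 36 of the 39 genes. It did so for 88.1% of all genes. The exceptions were Espl1, Top2a and Smc4. The bound does not extend to every probe. Dimmer probes of Anln (−1.57 to −0.28), Cdc20 (0.17 to 1.24) and Kif23 (−0.075 to 1.02) had intervals that reached past a 2-fold change. Smaller changes are not excluded by these intervals, and a p that misses the threshold does not show equal levels.

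**Figure D1:**
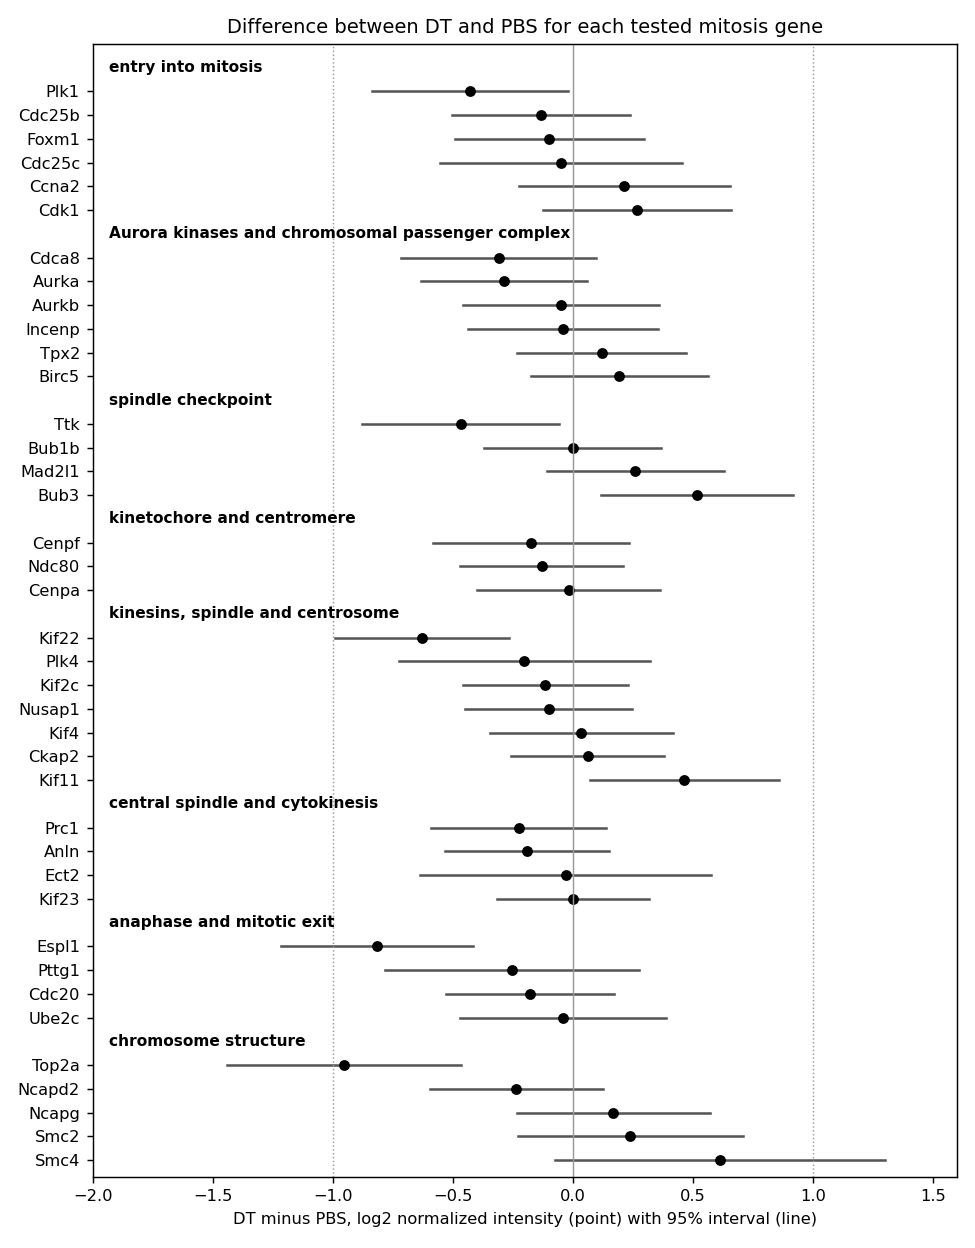
Difference between DT and PBS in normalized log2 intensity for the 39 tested genes, grouped by role; points are fitted differences, lines are 95% intervals from limma (n = 3 arrays a group), and dotted lines mark a 2-fold change. Most intervals cover 0, and those of Espl1, Top2a and Smc4 reach past a 2-fold change.

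Averaged over the 39 genes and set against the PBS mean, the DT arrays stood at −0.076, −0.14 and −0.016 for replicates 1 to 3, and the PBS arrays at −0.087, −0.039 and 0.13. The groups overlapped. PBS replicate 3 was the highest array for 17 of the 39 genes and the lowest for none of them, and DT replicate 2 was the lowest for 16. With each array left out in turn, the median difference of the 39 genes lay between −0.13, without PBS replicate 1, and −0.028, without PBS replicate 3.

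The differences nearest to the threshold were those of Espl1, Top2a and Kif22, all negative. Espl1 encodes separase, the protease that cuts cohesin at anaphase. Its normalized log2 levels were 7.10, 7.20 and 7.65 in DT, against 7.98, 8.22 and 8.18 in PBS. The groups did not overlap, and the difference was −0.82 (SE 0.18, n = 3 each; limma, adjusted p = 0.0567). Top2a encodes topoisomerase II alpha, which untangles sister chromosomes before they part. Its brightest probe gave 9.20, 8.87 and 9.75 in DT, against 10.07, 10.25 and 10.37 in PBS. Here too the groups did not overlap, with DT replicate 3 nearest to PBS, and the difference was −0.95 (SE 0.22; limma, adjusted p = 0.0573). Kif22 encodes the chromosome-bound kinesin Kid, which pushes chromosome arms towards the middle of the spindle. Its levels were 10.32, 10.13 and 10.43 in DT, against 10.89, 10.75 and 11.13 in PBS, a difference of −0.63 (SE 0.16; limma, adjusted p = 0.0688) without overlap.

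Before normalization the same 3 genes overlapped between the groups, with PBS replicate 2, the array with the lowest mean signal, below or among the DT arrays in each. The deposited signals of Espl1 were 218.3, 311.7 and 327.9 in DT, against 449.4, 279 and 431.4 in PBS. Those of Top2a were 555.3, 748.8 and 1026 in DT, against 1463, 757 and 1533 in PBS. Those of Kif22 were 1092, 1636 and 1559 in DT, against 2452, 1050 and 2531 in PBS. With each array scaled to a common median, which moved the median over all genes to 0.165, the differences were −0.64 for Espl1, −0.73 for Top2a and −0.41 for Kif22, and limma's adjusted p was 0.865, 0.808 and 0.94 in the same order. With a normexp offset of 50 limma's adjusted p-values were 0.0172, 0.0151 and 0.024, so that the side of the threshold depends on this step. These were 3 of 39 members, where 654 of all 9483 genes passed at that offset. Without DT replicate 3, Espl1 and Top2a passed, at −0.98 and −1.19 (adjusted p = 0.0254 and 0.022 in limma). In that fit 389 of all 9483 genes passed.

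**Figure D2:**
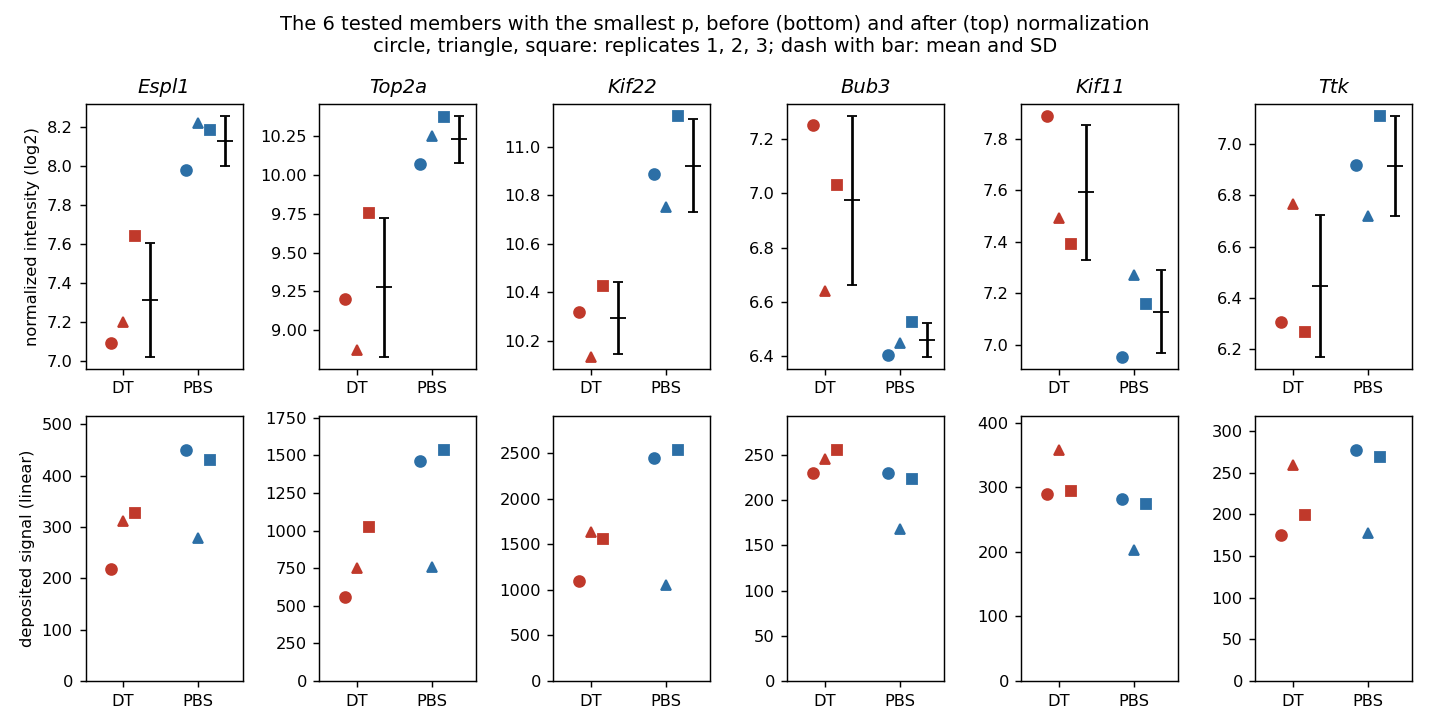
Values on each array for the 6 tested genes with the smallest p, DT left and PBS right; the top row gives normalized log2 intensity with mean and SD (n = 3), the bottom row the deposited linear signal. Espl1, Top2a and Kif22 separate after normalization, while PBS replicate 2 (triangle) lies among or below the DT arrays before it.

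The promoters of these 3 genes are shown because these genes had the smallest p of the tested members. They were searched for elements known from late cell cycle genes. The cell cycle genes homology region (CHR), which MuvB complexes bind, was searched as TTTGAA or TTTAAA, and the box bound by NF-Y as CCAAT, each on both strands. Sequences are from RefSeq on GRCm38.p6, from 250 bases before the annotated start to 30 after it, in the direction of transcription. Capitals mark TTTGAA and CCAAT or their reverse complements, and no TTTAAA was found in the 3 windows. The Espl1 window is chr15:102296043-102296322 on the plus strand, that of Top2a chr11:99024160-99024439 on the minus strand and that of Kif22 chr7:127042391-127042670 on the minus strand.
Espl1: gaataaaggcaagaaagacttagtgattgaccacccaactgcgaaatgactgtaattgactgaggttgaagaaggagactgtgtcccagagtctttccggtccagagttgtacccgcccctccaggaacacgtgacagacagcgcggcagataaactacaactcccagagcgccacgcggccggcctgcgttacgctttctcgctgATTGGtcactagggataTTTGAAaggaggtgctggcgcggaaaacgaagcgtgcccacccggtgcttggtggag
Top2a: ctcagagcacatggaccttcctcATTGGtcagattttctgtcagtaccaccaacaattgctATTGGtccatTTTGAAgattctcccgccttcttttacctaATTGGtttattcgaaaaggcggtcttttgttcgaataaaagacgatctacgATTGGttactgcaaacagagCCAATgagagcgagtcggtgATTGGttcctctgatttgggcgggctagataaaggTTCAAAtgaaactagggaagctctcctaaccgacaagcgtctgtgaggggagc
Kif22: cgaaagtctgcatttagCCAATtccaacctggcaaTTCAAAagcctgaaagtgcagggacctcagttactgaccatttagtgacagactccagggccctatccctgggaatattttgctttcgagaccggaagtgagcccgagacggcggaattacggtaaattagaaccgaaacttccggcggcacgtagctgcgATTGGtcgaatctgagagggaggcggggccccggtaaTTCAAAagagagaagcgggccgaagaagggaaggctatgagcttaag
Each holds a TTTGAA element, on 1 strand or the other, close to the start, with its first base at −27 in Espl1, −23 in Top2a and −17 in Kif22, and a reverse CCAAT box further from it, beginning at −44, −58 and −54. The Top2a window holds 6 CCAAT boxes, that of Kif22 holds 2 and that of Espl1 holds 1.

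Most other members carry the same letters. RefSeq windows of 300 bases (250 before and 50 after the start) were found for 40 of the 48 genes, 43 windows in all; none was listed for Ccna2, Cdc25c, Foxm1, Tpx2, Aurkb, Incenp, Kif20a and Smc4. TTTGAA occurred in 33 of the 43 windows (76.7%), beside 17.9% of all 32851 windows, and TTTAAA in 10 (23.3%), beside 13.2%. CCAAT occurred in 34 (79.1%), beside 37.4% of all windows. A CHR and a CCAAT box stood together in 32 of the 43 (74.4%), beside 10.7% of all windows. Kif23 and Kif11, whose differences were −0.00069 and 0.46, hold both elements as well. A match of letters is a description and shows no binding.

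Probes of 1 gene did not always go the same way, and Top2a is the clearest case. Its second probe (ILMN_2830661), which carries the RefSeq accession of the gene, gave 9.50, 9.66 and 9.96 in DT, against 9.69, 9.63 and 9.57 in PBS. That is a difference of 0.079 (SE 0.17; limma over every probe, adjusted p = 0.822), and the groups overlapped. Its dimmest probe (ILMN_1242235) gave 6.62, 5.72 and 6.49 in DT, against 7.40, 7.73 and 7.64 in PBS. This probe fell by 1.31 (SE 0.24; limma over every probe, adjusted p = 0.0434) and was the 1 of 67 tested probes of the set to pass, where 1.35% of the 17759 probes tested did. The groups did not overlap for 12 of the 67, beside 28.2% of all probes. The probe used above (ILMN_1255436) and the dimmest are both assigned to Top2a through cDNA clone accessions. The choice of the first probe over the second was narrow, with means over all arrays of 9.75 and 9.67. Chosen again without PBS replicate 2 or without PBS replicate 3, the brightest was the second probe, with differences of 0.078 and 0.048. The Top2a difference was thus seen with the 2 clone probes and not with the RefSeq probe. Of 925 genes with both RefSeq and other probes, the other probes gave the lower difference in 640.

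Several tested probes were available for 19 members. In 11 of the 19 all probes pointed the same way, beside 2132 of 3691 genes over the array. Besides Top2a, the exceptions were Smc4, Bub3, Cdc20, Kif23, Kif4, Ncapg and Cenpa. In Smc4 the probe differences ran between −0.65 and 0.61, in Bub3 between −0.39 and 0.52, in Cdc20 between −0.18 and 0.71 and in Kif23 between −0.37 and 0.47. Probes agreed most closely in Cdca8, with −0.31 for both, in Foxm1, with −0.10 for both, and in Bub1b, with −0.0024 and −0.0091.

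**Figure D3:**
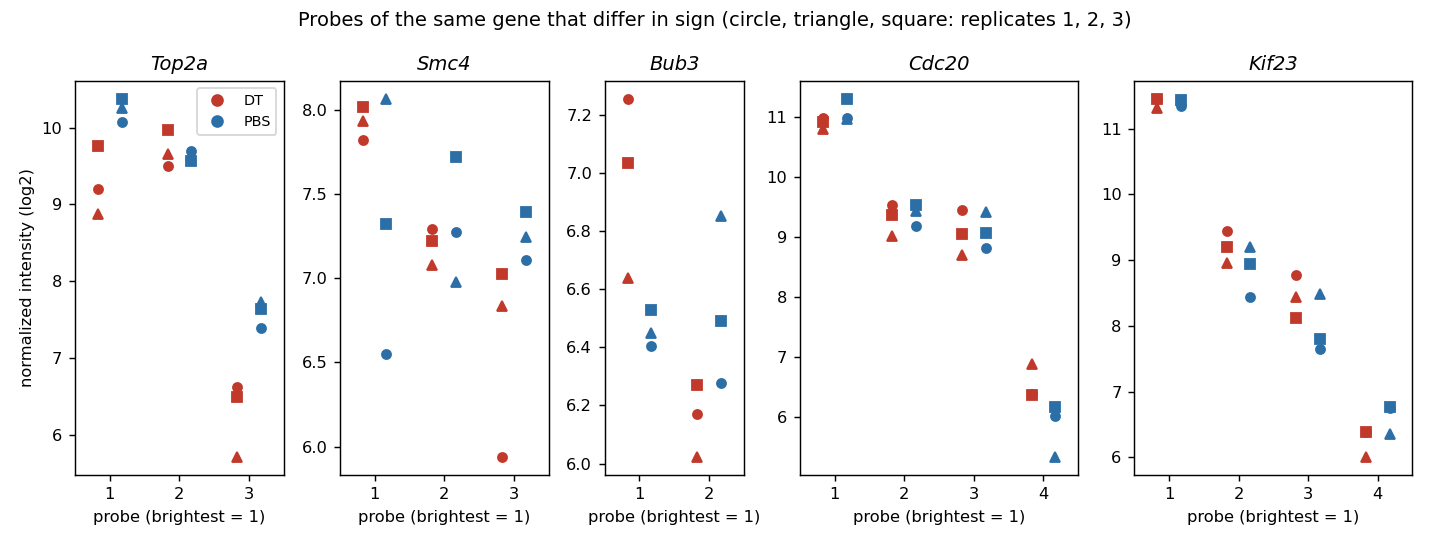
Normalized log2 intensity on each array for the tested probes of 5 genes whose probes differ in sign, DT left and PBS right of each probe position; probes are ordered by their mean over all arrays. Top2a lies lower in DT for probes 1 and 3 but not for probe 2, and in Bub3 the order of the groups turns between the probes.

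Among the genes of entry into mitosis, 6 of 8 were tested, with a median of −0.075, and none passed. Plk1, the Polo-like kinase that drives entry and spindle assembly, gave 10.00, 9.72 and 10.15 in DT, against 10.41, 10.12 and 10.62 in PBS. The groups overlapped through DT replicate 3 and PBS replicate 2, and the difference was −0.43 (SE 0.18; limma, adjusted p = 0.191). Cdk1, the mitotic kinase itself, gave 10.03, 9.81 and 9.79 in DT, against 9.31, 9.83 and 9.71 in PBS. Its difference of 0.26 (SE 0.18; limma, adjusted p = 0.385) was 0.11 without PBS replicate 1, the lowest of the 6 arrays. Cyclin A, encoded by Ccna2, stood at 0.21, and the phosphatases that switch on CDK1, Cdc25b and Cdc25c, at −0.13 and −0.051. Foxm1, the transcription factor of late cell cycle genes, gave −0.099 (95% interval −0.49 to 0.29).

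All 6 Aurora and chromosomal passenger genes were tested, with a median of −0.045 and none past the threshold. Aurka, the Aurora kinase of the spindle poles, gave 9.81, 9.68 and 9.98 in DT, against 10.20, 9.96 and 10.17 in PBS. The values overlapped by 1 pair of arrays, and the difference was −0.29 (SE 0.16; limma, adjusted p = 0.29). Its activator Tpx2 gave 0.12. The passenger complex carries Aurora B to centromeres and then to the spindle midzone. Of its members, borealin (Cdca8) gave 10.14, 9.85 and 10.11 in DT, against 10.53, 10.01 and 10.49 in PBS, with PBS replicate 2 among the DT values and a difference of −0.31 (SE 0.18; limma, adjusted p = 0.326). The kinase Aurkb gave −0.049, the scaffold Incenp −0.041 and survivin (Birc5) 0.19, so that subunits of this complex lay on both sides of 0. The dimmer Birc5 probes gave 0.45 and 0.31, both higher in DT without overlap (limma over every probe, adjusted p = 0.169 and 0.283).

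Of the 5 spindle checkpoint genes, 4 were tested, with a median of 0.13. Bub3, which brings BUB kinases to kinetochores, gave 7.25, 6.64 and 7.03 in DT, against 6.40, 6.45 and 6.53 in PBS. These groups did not overlap, at a difference of 0.52 (SE 0.18; limma, adjusted p = 0.129), but its second probe gave −0.39 and was separated in the opposite direction. Ttk, the checkpoint kinase also called MPS1, gave 6.31, 6.77 and 6.27 in DT, against 6.92, 6.72 and 7.11 in PBS. DT replicate 2 lay above PBS replicate 2, and the difference was −0.47 (SE 0.18; limma, adjusted p = 0.163). Mad2l1, whose product binds and blocks CDC20, gave 0.26, and Bub1b, its partner in the checkpoint complex, −0.0024 (95% interval −0.37 to 0.37). The dimmer Mad2l1 probe gave 0.47 with overlap (SE 0.19; limma over every probe, adjusted p = 0.176).

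Of the 5 kinetochore and centromere genes, 3 were tested, all between −0.17 and −0.019. Cenpf gave 7.36, 7.33 and 7.61 in DT, against 7.27, 7.70 and 7.85 in PBS, a difference of −0.17 (SE 0.18; limma, adjusted p = 0.594). Ndc80, the microtubule-binding subunit of the outer kinetochore, gave 9.19, 8.85 and 9.06 in DT, against 9.09, 9.19 and 9.22 in PBS, a difference of −0.13 (SE 0.15; limma, adjusted p = 0.636). Both overlapped between the groups. Cenpa, the histone H3 variant that marks centromeres, was at 12.7 ± 0.042 in DT and 12.7 ± 0.28 in PBS (SD, n = 3).

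Of the 8 genes of spindle motors and centrosomes, 7 were tested, with a median of −0.10. Kif22, described above, stood lowest. Kif11, the kinesin that pushes the spindle poles apart, stood highest, at 7.89, 7.49 and 7.39 in DT, against 6.95, 7.27 and 7.16 in PBS. The groups did not overlap, and the difference was 0.46 (SE 0.18; limma, adjusted p = 0.154). The centriole kinase Plk4 gave −0.20, the microtubule-depolymerising kinesin Kif2c −0.12, the spindle protein Nusap1 −0.10, the chromokinesin Kif4 0.035 and the spindle protein Ckap2 0.061.

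Of the 6 genes of the central spindle and of cytokinesis, 4 were tested, and all lay between −0.23 and −0.00069. Prc1, which bundles the antiparallel microtubules of the midzone, gave 11.16, 10.93 and 11.13 in DT, against 11.41, 11.06 and 11.43 in PBS, a difference of −0.23 (SE 0.16; limma, adjusted p = 0.428). Anln, the anillin scaffold of the cleavage furrow, gave 11.04, 11.03 and 11.20 in DT, against 11.30, 11.10 and 11.44 in PBS, a difference of −0.19 (SE 0.15; limma, adjusted p = 0.476). In each of these genes PBS replicate 2 lay among the DT arrays. A dimmer Anln probe gave −0.93 without overlap (SE 0.29; limma over every probe, adjusted p = 0.106). Kif23, the kinesin of the centralspindlin complex, was 11.4 ± 0.082 in DT and 11.4 ± 0.054 in PBS (SD, n = 3), and Ect2, the exchange factor that activates RhoA at the furrow, gave −0.031.

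All 4 genes of anaphase and mitotic exit were tested, and all were negative, with a median of −0.22, though with scaling to a common median Cdc20 was at 0.029 and Ube2c at 0.13, and with the mean over probes Cdc20 was at 0.10. Separase (Espl1) is described above. Its inhibitor securin, encoded by Pttg1, gave −0.25 with an interval from −0.78 to 0.28. Cdc20, which activates the anaphase-promoting complex, gave 10.99, 10.81 and 10.92 in DT, against 10.98, 10.97 and 11.31 in PBS, a difference of −0.18 (SE 0.16; limma, adjusted p = 0.519) with overlap. Ube2c, the ubiquitin-conjugating enzyme of that complex, gave −0.042. Of the 6 chromosome structure genes, 5 were tested, with a median of 0.17. Smc4, a core subunit of condensin, gave 7.82, 7.93 and 8.02 in DT, against 6.55, 8.06 and 7.32 in PBS. The PBS values alone spanned all DT values, and the difference of 0.61 had the largest SE of the tested set, 0.31 (limma, adjusted p = 0.258). Its partner Smc2 gave 0.24, and the condensin I subunits Ncapg and Ncapd2 gave 0.17 and −0.24.

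Other genes of mitosis were read from 5 further lists of 116 genes, of which 97 were tested. Of these, 1 was higher and 0 lower at an adjusted p of 0.05, beside 1.09% of all genes, and the median was −0.042. The 1 gene was Spc25, a subunit of the NDC80 complex, at 8.79 ± 0.057 in DT and 8.01 ± 0.18 in PBS (SD, n = 3). It rose by 0.78 (SE 0.15; limma, adjusted p = 0.0477), while its complex partner Ndc80 gave −0.13. Spc24, another subunit of that complex, named after its values were seen, gave −0.51 (SE 0.20; limma, adjusted p = 0.165), lower in DT without overlap. Spc25 passed in 6 of the 15 alternatives, with differences between 0.56 and 0.96 and adjusted p-values in limma between 0.0104 and 0.589. It did not pass without DT replicate 1 or 2 or without any 1 of the PBS replicates, with adjusted p-values between 0.0631 and 0.208 there. Of the same kinetochore list, Oip5, which helps load CENP-A, gave 0.73 (adjusted p = 0.0678 in limma).

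The members with the smallest p in the other 4 of these lists did not pass. Genes of the anaphase-promoting complex and its regulators, 12 tested, had a median of −0.15, with 0.51 for Cdc16 and 0.54 for Cdc26. Other spindle and cytokinesis genes, 26 tested, had a median of −0.087, with −0.64 for Troap and −0.61 for Gtse1. Other cohesin and condensin genes, 17 tested, had a median of −0.029, with −0.46 for the cohesin subunit Smc1a and −0.45 for Ncaph2 of condensin II. Centriole and centrosome genes, 12 tested, had a median of −0.065, with 1.01 for the centrin Cetn2 and −0.53 for Cep152. Adjusted p-values of these 8 genes lay between 0.0562 and 0.153 in limma. In the 15 alternatives Cetn2 passed in 5, Troap and Gtse1 in 3 each and Smc1a in 2, and the other 4 genes in none. Smc1a was at −0.027 with the mean over probes.

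Regulators upstream of mitosis did not pass with the settings used here either. Of the MuvB, MYBL2, E2F and RB genes, 14 were tested with a median of −0.16, and E2f7 and E2f2 gave −0.60 and −0.59. Of 9 G1 cyclins and kinases, Cdk4 gave 0.60 and cyclin D1, encoded by Ccnd1, −0.52, with a list median of −0.23. Among 9 tested brakes of the cell cycle, the CDK inhibitors Cdkn1a (p21) and Cdkn1b (p27) gave −1.22 (SE 0.31) and −0.91 (SE 0.23), and limma's adjusted p was 0.0648 for Cdkn1a and 0.0647 for Cdkn1b. In the 15 alternatives Cdkn1a passed in 6, Cdkn1b in 4, Cdk4 in 3 and Ccnd1 in 1, and E2f7 and E2f2 in none. The DNA replication genes, the nearest neighbours in function, had 38 of 40 tested, 0 past the threshold in limma (10 at an unadjusted p under 0.05, or 26.3%, beside 23.9% of all genes), and a median of −0.044. The groups did not overlap for 10 of the 38, or 26.3%, beside 28.9% of all genes. Rpa2, of the protein that coats single-stranded DNA, gave −0.91 and Pold1, the catalytic subunit of a replicative polymerase, −0.86, with an adjusted p of 0.0568 for each in limma. Rpa2 passed in 6 of the 15 alternatives and Pold1 in 5, and Rpa2 was at −0.16 with the mean over probes. The mitotic and the replication genes were not tested against each other.

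**Figure D4:**
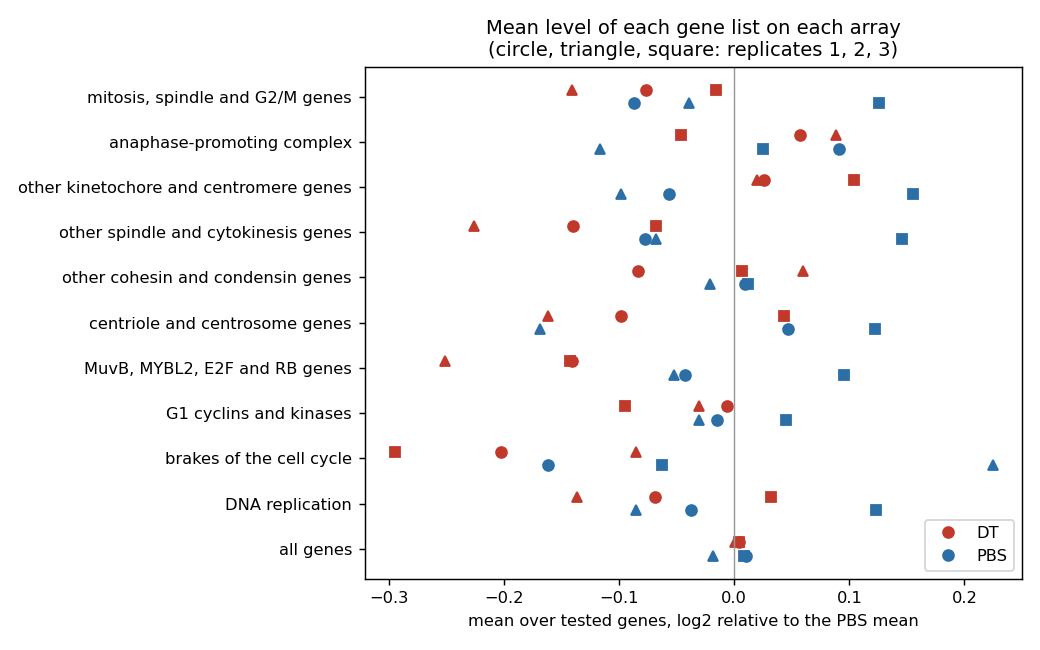
Mean of the tested genes of each list on each array, in log2 relative to the PBS mean, with DT above PBS in each row. PBS replicate 3 (square) is the highest PBS array for the mitotic genes at 0.13, DT replicate 2 (triangle) lies lowest for them at −0.14, and the groups overlap for the mitotic genes.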

How the data were processed

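Sorted MC38 cells, 3 DT and 3 PBS samples, were measured on single-colour Illumina arrays. Per the labels' protocols, Trizol RNA was amplified from oligo-dT and labelled with biotin. The authors deposited, per the file headers, an average signal for each probe, which is a linear intensity before normalization judging by its values, with its detection p-value. They also deposited a normalized log2 value whose making is not given in the sources used here; it served as an alternative. Probe names came from the platform annotation, with symbols updated for 34807 probes.

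Normalization used the neqc function (normexp, offset 16, quantile, log2) of limma 3.58.1, under R 4.3.3, which removes any shift shared by all genes. Background was inferred from the detection p-values, since no control probes were used here. Probes needed a detection p under 0.05 on 3 arrays or more, and the brightest such probe stood for its gene. The DT and PBS groups were compared in limma (lmFit, eBayes; two-sided), with Benjamini-Hochberg adjustment over 9483 genes, or over 17759 probes where stated. Every member with a probe is named, with array values for the 2 of each role with the smallest p. Members, lists and alternatives were chosen with earlier results of these data known. The fit was tested on simulated data. Same-numbered arrays did not deviate together, with correlations of −0.10, −0.18 and 0.030. Figures used matplotlib 3.10.9.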

Additional observations from a re-analysis of the deposited data

Results flagged for a closer look

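Probes of 5 members that were too dim to enter the tests were above background on a DT array and on no PBS array. The highest DT value of the Hmmr probe, above background on 2 DT arrays, was 5.15, against 4.88 as its highest PBS value. For Bub1, above background on 1 DT array, these values were 5.32 in DT and 4.93 in PBS. For the other 3 probes, also above background on 1 DT array each, they were 5.04 and 4.96 for Cdk1, 5.21 and 5.02 for Smc2 and 5.24 and 4.81 for Ncapg. The reverse, above background on 1 PBS array and on no DT array, held for dim probes of Cdc25c and Kif20a. Their highest values were 5.29 in PBS and 4.80 in DT for Cdc25c, and 5.26 and 4.59 for Kif20a. Another 21 dim probes of members were above background on no array. No share over all dim probes of the array was taken. These differences were not tested, and Cdk1, Smc2, Ncapg and Cdc25c each have a brighter probe that was.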

How the results depend on the processing

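For the 39 tested members, 565 of 586 gene values under alternatives kept direction and side of the threshold, taking a direction as stated only where the difference exceeded its SE. In 15 the gene passed; these were Espl1 and Top2a, 6 alternatives each, and Kif22, 3, all lower in DT. Reversals were Anln (0.024) and Cdc20 (0.029) with median scaling, Cdc20 (0.10) and Smc4 (−0.055) with the mean over probes, and Top2a (0.078 and 0.048) with the probe chosen again without PBS replicate 2 or 3, which was tried only once the values were known. The median difference ranged from −0.13 to −0.028 with each array left out. The count of members past the threshold was 3 with a normexp offset of 50, without background correction, with an intensity trend and at an adjusted p of 0.1, and 2 with the deposited values and with detection p under 0.01; it lay between 0 and 2 with each array left out. It was also 0 with no filter (46 members tested), the mean over probes and the replicate block. In these, 8, 8 and 7 members had an unadjusted p under 0.05 in limma. Over all genes, 2942 of 19057, 2255 of 9483 and 2021 of 9483 had such a p, in the same order. Median scaling called 0 members, where 1 member had such a p, beside 583 of the 9483 genes. It gave a member median of 0.12 against 0.165 over all genes. Members without overlap numbered 8 with the deposited values (26.8% of all genes), and between 6 without PBS replicate 3 (36.7% of all genes) and 17 without PBS replicate 2 (46.1%); leaving out an array makes overlap rarer for every gene. Member probes past the threshold were 4 with offset 50 or without background correction, and 5 with the trend. They were 0 with median scaling or the replicate block, and 0 to 4 with each array left out. All probes past the threshold were not counted under these alternatives, so the member probe counts cannot be set against the array as a whole. Over all genes the count was 654 with offset 50, 558 without background correction, 27 with median scaling, 313 with the deposited values, 264 with detection p under 0.01, 30 with the replicate block, 772 with the trend and 755 at an adjusted p of 0.1. It was 0 with no filter (2942 genes at an unadjusted p under 0.05 in limma) and ranged from 0 without DT replicate 2 (1299 such genes) to 389 without DT replicate 3. The causes of these moves were not tested, and no slide was given to block on.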

Other observations

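Over the whole array, 925 genes had both a tested probe assigned by a RefSeq mRNA accession and a tested probe assigned by another accession. The difference between DT and PBS was lower for the probes of other accessions in 640 of the 925 (69.2%), with a median of −0.22 on the log2 scale. Among the 6 mitotic genes with both kinds, it was lower in 5: Top2a (−1.21), Smc4, Bub3 (−0.90), Plk4 (−0.15) and Kif23 (−0.12), with 0.14 in Cenpa. This comparison was chosen after the data were seen, has no test, and these probes share arrays and genes.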
